A study of Mus musculus with 11 samples.

Results

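Mouse bone marrow monocytes grown with Jagged-1 (Jag1) and FICZ together were compared with monocytes grown with neither. The comparison used 5 of the 11 samples of the series, 3 labelled TGFβ/IL-34/Jag1/FICZ and 2 labelled TGFβ/IL-34. Its genes were 13095 of the 21860 in the table, those reaching 10 normalized counts in 2 or more of the 11 samples. The medium of every culture compared held the growth factor GM-CSF (20 ng/ml), TGFβ (5 ng/ml) and the cytokine IL-34 (8 µg/ml), and CD11b-low EpCAM+ cells were sorted on day 6 for bulk RNA sequencing. Below, Jag1 alone and FICZ alone stand for the cultures that had TGFβ, IL-34 and that addition only (3 and 2 libraries). The 1 remaining sample had Jag1 but no TGFβ or IL-34. Being alone in its group, it added nothing to the estimate of spread. It entered the comparison only through the filter on low values and the average level of each gene in the fit. Jag1 was carried by OP9 cells, a mouse bone marrow stromal line, so the ligand and the stroma cannot be told apart. The label of every sample names a co-culture with OP9 cells, and whether the cultures without Jag1 held any was not given in the sources used here. The protocols also give a lower number of monocytes per well on OP9 cells than in plain wells, so seeding density may go with the stroma. FICZ, a tryptophan photoproduct, is a ligand of the aryl hydrocarbon receptor (Ahr). The study's text calls it an agonist and the design text deposited with the data an antagonist. Its dose was not given, and nothing states whether replicates came from separate mice, so p-values measure the spread between these samples.

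Langerhans cells are the resident phagocytes of the epidermis, and monocytes given TGFβ and IL-34 take on some of their features, among them EpCAM, an adhesion molecule. Notch receptors are cleaved when a neighbouring cell presents a ligand such as Jag1, and the freed intracellular part turns on genes with the DNA-binding protein Rbpj. Ahr is a ligand-activated transcription factor whose best known targets are the cytochrome P450 enzymes of the Cyp1 family, and it is highly expressed in Langerhans cells.

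The normalized counts made by the authors are used throughout, with totals of 21.3 to 21.8 M per library. The steps between low values put 1 read at 0.916 to 1.05 normalized counts and the depth at an estimated 20.6 to 23.8 M reads. For a gene listed at 0 the limit is 3 reads (2.75 to 3.15 normalized counts), for counting error only. The label was checked with marker lists. The leukocyte markers Ptprc, Itgam, Lyz2 and Tyrobp summed to 22320 to 26754 with neither and 19988 to 23566 with Jag1 and FICZ. Epcam, the gene of the sort, stood at 5050.4 and 4706 with neither and 7594, 6086 and 9133 with both additions. The 5 Langerhans cell markers Cd207, Epcam, Cldn1, Mfge8 and Cd24a summed to 145225 to 147863 with neither and 53441 to 114748 with both. Stromal markers summed to 12.8 to 22.0 with neither and 627 to 4102 with both, and those genes are kept apart in what follows. Erythroid markers summed to at most 21.2 in any of the 5 libraries. Replicate 1 of TGFβ/IL-34/Jag1/FICZ was run on another flow cell than the other 4 libraries.

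The first question was how many genes differed between cells grown with both additions and cells grown with neither. Of the 13095 genes, 587 passed an adjusted p of 0.05 (limma on log2(value + 1), Benjamini-Hochberg), which is 4.48%. Of these, 408 were higher with Jag1 and FICZ (3.12% of the genes tested) and 179 were lower (1.37%). At an unadjusted p under 0.05 there were 2335 genes. The median log2 fold change was 2.03 among the genes that were higher and −1.55 among those that were lower, against 0.0053 over all genes tested. More than 16-fold changes were seen in 65 genes on the higher side and 8 on the lower side, whereas 49 and 33 genes changed less than 2-fold. The 2 groups did not overlap in any of the 587 genes, but neither did they in 54.2% of all genes tested. Because 1 was added before taking logs, fold changes of genes near 0 are understated. The count rested on each library. With control replicate 1 left out it was 35 and with control replicate 2 left out 126, the single control then being assumed to have the spread of the other groups. It was 191, 182 and 308 without replicates 1, 2 and 3 of TGFβ/IL-34/Jag1/FICZ. The groups with more than 1 library shared 1 estimate of the spread. The count was 1699 when the 2 TGFβ/IL-34/FICZ libraries were left out of it, which was tried only after seeing the data. It was 3011 with only the 5 samples. In all, 31 genes passed with every library and without each of the 5 in turn. Since this is bulk RNA, fewer cells of a type and less RNA per cell cannot be told apart in any result here.

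**Figure D1:**
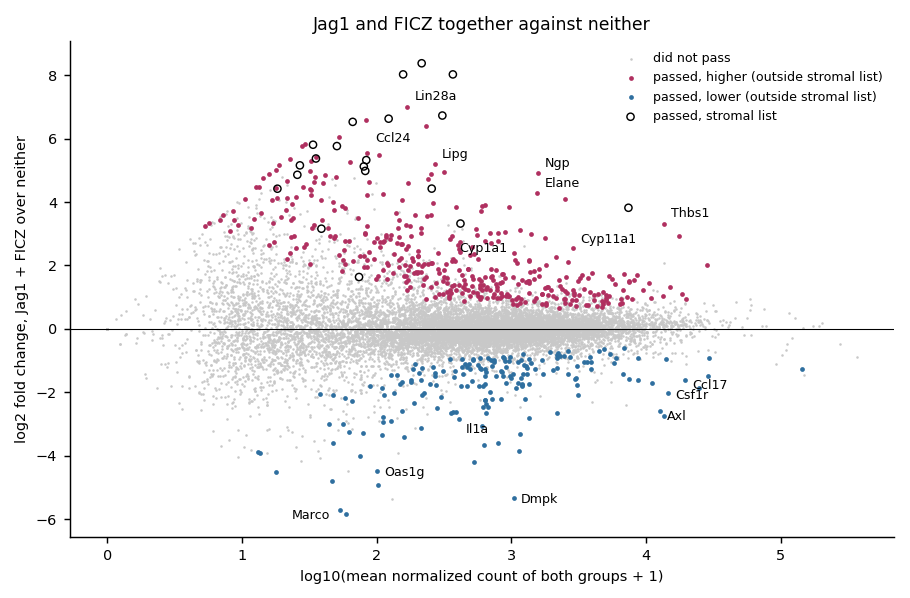
Each point is 1 of 13095 genes, with the log10 of its mean normalized count (plus 1) over the 2 groups on the x axis and its log2 fold change, Jag1 and FICZ together over neither, on the y axis. Red and blue points passed and were higher (388 outside the stromal list) or lower (179), open circles are the 20 stromal list genes that passed, and grey points did not pass.

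The largest changes outside the stromal genes were taken by rule, up to 12 in each direction. Lin28a (ENSMUSG00000050966, chromosome 4, 133730641 to 133746173, GRCm39), which encodes an RNA-binding protein that blocks let-7 maturation, stood at 0.662 and 2.63 with neither and 490.2, 313 and 198 with both additions. Every library with both was far above either control, and the gene passed without each library in turn (log2 fold change 6.99, SE 0.657, adjusted p 0.00108, limma). With FICZ but no Jag1 it stood at 24.7 and 72.6, and with Jag1 but no FICZ at 1.57, 2.16 and 0.678. Both additions together were higher than Jag1 alone (adjusted p 5.35e-05), whereas the difference from FICZ alone missed the threshold (log2 fold change 2.85, adjusted p 0.0591).

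Ccl24 (eotaxin-2), a chemokine for eosinophils, rose from 3.89 and 4.20 to 716, 340.5 and 318 (log2 fold change 6.40, SE 0.454, adjusted p 0.000706, limma). Its values with Jag1 alone were 285, 565 and 556, and those with FICZ alone were 10.2 and 6.07. Hand1, a basic helix-loop-helix transcription factor, was also high in both groups with Jag1, with 4.45 ± 4.89 with neither, 109.9 ± 45.5 with Jag1, 7.82 ± 5.83 with FICZ and 202 ± 100.5 with both (SD, n = 2, 3, 2 and 3). For both genes the groups with both additions and with Jag1 alone overlapped, and neither passed between them (adjusted p 0.94 and 0.442).

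Gzmb, Arnt2 and Lipg were lower with either addition alone than with both. In the 1 sample with Jag1 but no TGFβ, IL-34 or FICZ, Gzmb (1072) and Arnt2 (75.4) were above all 3 libraries with both. Lipg (129) was below them there. Gzmb, which encodes the granzyme B protease of cytotoxic cells, was at 0.949 and 0 with neither and at 160.5, 280.0 and 51.5 with both (log2 fold change 6.58, SE 1.13, adjusted p 0.0116, limma). It stood at 0, 0 and 6.91 with Jag1 alone and at 0 and 4.44 with FICZ alone, so no library of those groups reached the lowest one with both. Arnt2, a dimerization partner related to the Ahr partner Arnt, was listed at 0 in both controls and at 47.7, 48.0 and 66.9 with both, at least 18.9-fold higher when the controls are set to 3 reads each. Its values were at most 1.73 with either addition alone, and both additions together were higher than each (adjusted p 0.00058 against Jag1 and 0.00772 against FICZ). Lipg, which encodes endothelial lipase, rose from 9.54 and 17.0 to 597, 620.0 and 352 (log2 fold change 5.20, SE 0.493, adjusted p 0.00108). Both additions together were also higher than Jag1 alone at 3.40, 2.07 and 2.93 (adjusted p 1.02e-05) and FICZ alone at 35.5 and 85.1 (adjusted p 0.0137). Gzma, another granzyme, rose from 0 in both controls to 65.5, 64.3 and 40.9, and Baiap3, a protein of dense-core vesicle transport, from 0 and 1.55 to 63.1, 62.5 and 61.1. B4galnt4, a glycosyltransferase, rose from 2.42 ± 0.668 (SD, n = 2) to 165 ± 65.1 (SD, n = 3). These 3 were higher with both than with Jag1 alone (adjusted p 0.0013, 0.000102 and 0.0451) and did not pass against FICZ alone (adjusted p 0.112, 0.224 and 0.377). Aebp1, Col16a1 and Rps18-ps6 complete the 12, and none of them passed against Jag1 alone (adjusted p 0.69, 0.227 and 0.575). They were highest in replicate 3 of the Jag1/FICZ group, as the stromal genes were, and Rps18-ps6 carries a pseudogene's name and can share reads with Rps18, so its value is uncertain.

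On the lower side, Dmpk (ENSMUSG00000030409, chromosome 7, 18817406 to 18827746), a serine/threonine kinase, fell from 2159.5 and 1887 to 57.8, 23.7 and 86.6 (log2 fold change −5.33, SE 0.541, adjusted p 0.00134, limma). All 3 libraries with both additions lay far below both controls. With Jag1 alone Dmpk was at 761 ± 259.8 (SD, n = 3) and with FICZ alone at 608 ± 352 (SD, n = 2), and both together were lower than each (adjusted p 0.000499 and 0.0141). Pdpn, the membrane glycoprotein podoplanin, fell from 1487 and 1404 to 87.1, 84.1 and 229.9, also lower than with Jag1 (adjusted p 0.0024) or FICZ alone (adjusted p 0.00772). Uchl1, a ubiquitin hydrolase, fell from 1117 and 1175 to 55.4, 70.6 and 182 and was likewise lower than with either addition alone (adjusted p 0.000249 and 0.026). Trp53i11 fell from 2295 and 1839 to 89.4, 79.2 and 411, and Fgf13, an intracellular fibroblast growth factor homologue, from 71.8 and 103 to 0, 3.67 and 5.43. The other 7 were the scavenger receptors Marco and Mrc1, the Fc receptor Fcgr1, and Ifi44, Oas1g, Ifi207 and Ddx60, which are induced by interferons. Of all 24 genes, 7 passed without each of the 5 libraries in turn, namely Lin28a, Ccl24, Baiap3, Lipg, Dmpk, Uchl1 and Pdpn. These 7 were also the ones left without replicate 1 of TGFβ/IL-34, against 9 to 17 of the 24 without any 1 of the other 4 libraries.

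**Figure D2:**
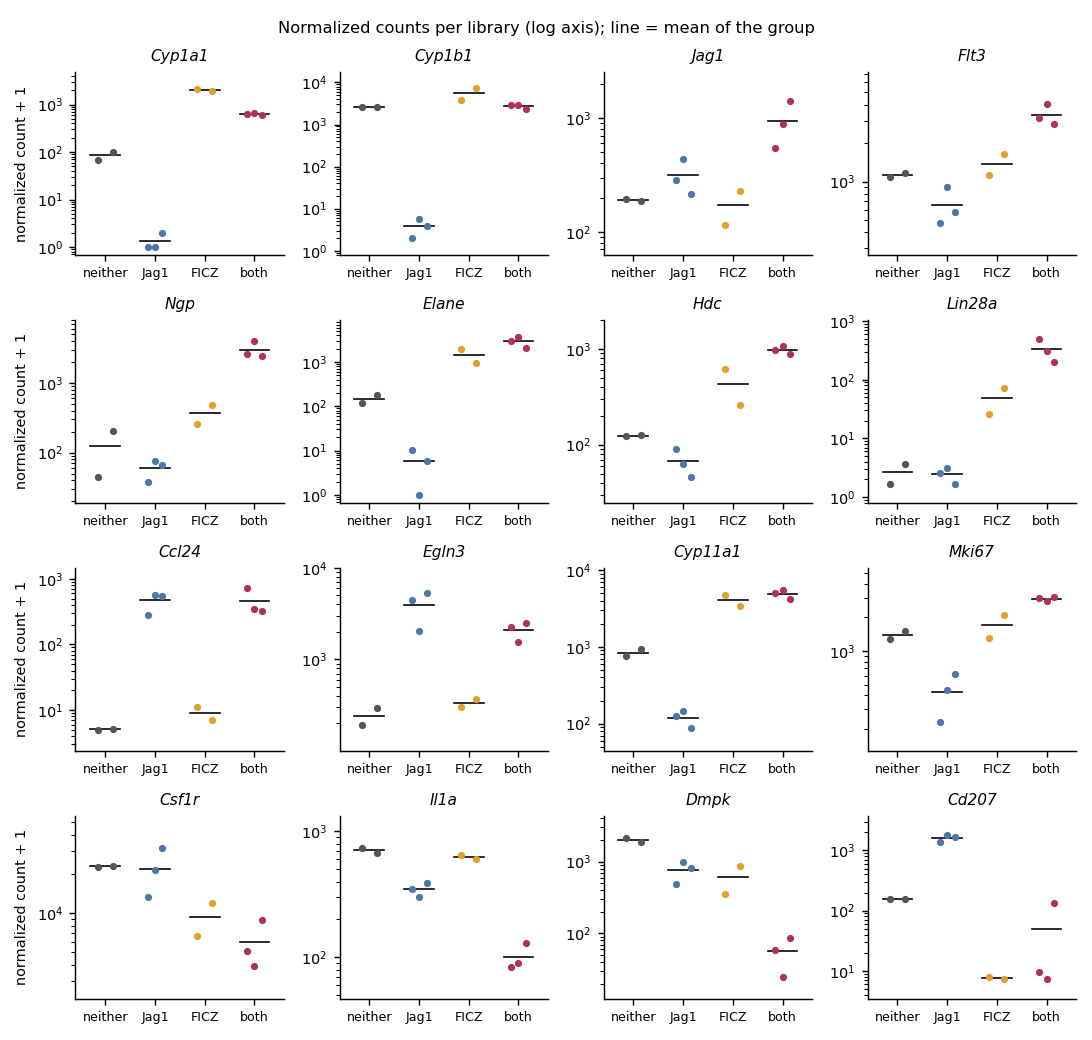
Normalized counts plus 1 of 16 genes are plotted on log axes, each point being 1 library of the 4 groups given TGFβ and IL-34 (neither n = 2, Jag1 n = 3, FICZ n = 2, both n = 3) and each line the group mean. Lin28a and Ngp are highest with both additions, Ccl24 and Egln3 are high in both groups with Jag1, Cyp1a1 and Cyp11a1 in both groups with FICZ, and Dmpk and Il1a are lowest with both.

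The receptors that the 2 additions act on were examined next. The gene lists from here on were chosen with earlier results of these data known. Their shares of calls therefore only describe the lists and test nothing about them. Of 11 tested genes of the Ahr pathway, 1 was higher, none was lower and 10 did not pass, with a median log2 fold change of 0.13. The gene that passed was Cyp1a1 (ENSMUSG00000032315, chromosome 9, 57595211 to 57611107), a xenobiotic-metabolizing enzyme and the usual readout of Ahr. It was at 68.1 and 100.1 with neither and 644, 671 and 604 with both, 7.61-fold higher by the means and without overlap (log2 fold change 2.94, SE 0.391, adjusted p 0.00456, limma). The call was lost when replicate 1 of the controls was left out and held without each of the other 4 libraries. With FICZ alone the values were 2079 and 1933, above all 3 libraries with both additions, a difference that missed the threshold (adjusted p 0.0649), and with Jag1 alone they were 0, 0 and 0.985. Cyp1b1, the related enzyme, did not pass. It stood at 2570.2 and 2556 with neither and 2868, 2996 and 2384 with both (log2 fold change 0.09, SE 0.412, adjusted p 0.95), although it was at 1.04, 4.76 and 2.80 with Jag1 alone, where both together were higher (log2 fold change 9.59, adjusted p 8.66e-07). Ahr itself was at 5561 and 5170.4 with neither and 3071, 3203 and 5132 with both (adjusted p 0.608). Ahrr, the Ahr repressor, and Tiparp, a feedback regulator of Ahr, had log2 fold changes of 0.21 and −0.18 (adjusted p 0.711 and 0.776).

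Ahr and its partner Arnt bind DNA at elements with the core GCGTG, and the promoters of Cyp1a1 and Cyp1b1 were read for it because these enzymes differed in response. A promoter here is the stretch from 250 bases before to 50 after a start site in RefSeq (GRCm38.p6), searched on both strands. Windows of 30 bases are shown 5′ to 3′ on the strand that carries the core, which is in capitals.
Cyp1a1, chr9:57697547-57697576, plus strand: tcagataaggagGCGTGgccaacagacaca
Cyp1b1, chr17:79715121-79715150, plus strand: ttagggggtgggGCGTGaggggcgggacgc
The core lay 54 bases before the start of Cyp1a1 on the gene's strand and 76 before that of Cyp1b1 on the opposite strand. It was found in 32.4% of all 32851 promoters in the RefSeq table. Among genes with a promoter there, it was found in 148 of 302 that passed and were higher (49.0%), in 61 of 139 that passed and were lower (43.9%) and in 5642 of 10394 tested genes (54.3%).

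Of 19 Notch receptors, ligands and processing genes, 2 were higher, none was lower and 17 did not pass (median −0.06). Both genes that passed encode ligands. Jag1 transcripts (ENSMUSG00000027276, chromosome 2, 136923373 to 136958693) stood at 192 and 184 with neither and at 542, 891 and 1397 with both, 5.02-fold higher (log2 fold change 2.22, SE 0.443, adjusted p 0.0224, limma). They were lowest in replicate 1 and highest in replicate 3, the order of the summed stromal markers in these libraries (627, 1490.0 and 4102), and the part of the stroma in the value was not tested. Jag2, a related ligand, rose from 108 and 144 to 847, 868 and 404 (log2 fold change 2.41, SE 0.53, adjusted p 0.0325) and did not have that order. Neither gene passed without replicate 1 or replicate 2 of TGFβ/IL-34. Notch1 and Notch2, the receptors, were at 5448 ± 131 and 4553 ± 269 with neither (SD, n = 2) and at 4971 ± 554 and 3878 ± 284 with both (SD, n = 3), and neither passed (adjusted p 0.882 and 0.843). With Jag1 alone Notch1 was at 881, 625 and 1196, so that both additions together were higher (log2 fold change 2.51, adjusted p 0.000176). None of 13 Notch nuclear factors and targets passed, in either direction, and 0 of 13 compares with 4.48% of all genes (limma). Nrarp, a feedback inhibitor that Notch turns on, was at 57.3 and 58.9 with neither and 159, 184 and 117 with both (log2 fold change 1.36, adjusted p 0.0635). Dtx4, a ubiquitin ligase of the pathway, was at 1362 and 1472 and 459, 528 and 674 (log2 fold change −1.37, adjusted p 0.0654). Both had groups that did not overlap but missed the threshold.

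Of 32 genes of the TGFβ pathway, 5 were lower, 1 was higher and 26 did not pass (median −0.02), 18.8% called against 4.48% of all genes. Id3, an inhibitor of DNA binding that is a target of this receptor family, fell from 934 and 1248 to 178, 232 and 214 (log2 fold change −2.38, SE 0.503, adjusted p 0.0283, limma). Ltbp3, which holds latent TGFβ in the matrix, fell from 1174 and 1077 to 384, 379 and 433, and Eng, a co-receptor, from 1361 and 1047 to 607, 622 and 544. Pmepa1 and Ski, which dampen signalling through Smads, fell by less than 2-fold (log2 fold changes −0.86 and −0.71). Nrros, which anchors latent TGFβ on myeloid cells, rose from 2557 and 2938 to 4154, 5006 and 4852 (log2 fold change 0.76, SE 0.168, adjusted p 0.0327). Id3 and Ltbp3 were lower with both additions than with FICZ alone (adjusted p 0.0298 and 0.0271). The receptor genes Tgfbr1 and Tgfbr2 did not pass (log2 fold changes −1.60 and −0.70, adjusted p 0.135 and 0.444). All 6 calls were lost without replicate 1 or replicate 2 of TGFβ/IL-34, and 1 at most was left without a library of the other group.

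Genes that mark Langerhans cells were lower in the median. Of 16 tested, 1 was lower, none was higher and 15 did not pass, with a median log2 fold change of −0.71. The share called was 6.25%, against 4.48% of all genes. The one that passed was Lpar3, a lysophosphatidic acid receptor, at 646 and 565 with neither and 53.1, 89.9 and 182 with both (log2 fold change −2.65, SE 0.534, adjusted p 0.0234, limma), a call that held without replicate 3 of the Jag1/FICZ group and in none of the other leave-outs. Cd207 stood at 157 and 154 with neither and at 8.39, 6.29 and 132 with both (log2 fold change −2.91, SE 0.983, adjusted p 0.14). Replicates 1 and 2 with both additions were far below the controls and replicate 3 was near them. With Jag1 alone Cd207 was at 1366, 1784 and 1699, above both additions together (adjusted p 0.000908), and with FICZ alone at 6.90 and 6.21. Cldn1, a tight junction protein, had the same order, with 6561 and 6161 with neither, 15062 ± 391 with Jag1 (SD, n = 3) and 1148, 705 and 2679 with both (adjusted p 0.0638 against neither and 0.00156 against Jag1). Mfge8, a bridge for apoptotic cell uptake, was at 121691 and 124389 with neither and 51262, 39376 and 93422 with both (adjusted p 0.106). Epcam and Id2, a transcriptional regulator that Langerhans cells need, were on the higher side without passing (log2 fold changes 0.62 and 0.63, adjusted p 0.296 and 0.179).

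Among 15 growth factor receptors, 1 was higher, 1 was lower and 13 did not pass. Csf1r (ENSMUSG00000024621, chromosome 18, 61229714 to 61266535), the receptor for both CSF-1 and the IL-34 of these cultures, stood at 22668 and 23145 with neither and 5106, 3901 and 8828 with both. All 3 libraries with both were below both controls (log2 fold change −2.03, SE 0.414, adjusted p 0.0239, limma). The 5 macrophage markers, Csf1r among them, summed to 39056 to 39949 with neither and 12370 to 20508 with both. It was at 13200.0, 21274 and 31394 with Jag1 alone, so that both together were lower (adjusted p 0.00583), and at 6679.9 and 11954 with FICZ alone (adjusted p 0.325). Flt3, the receptor for FLT3 ligand on dendritic cell progenitors, went the other way, from 1094 and 1160.2 to 3142, 4057 and 2829 (log2 fold change 1.55, SE 0.283, adjusted p 0.0161). It was lower with Jag1 alone, at 475, 909 and 577 (adjusted p 0.000203 against both together), and at 1127 and 1633 with FICZ alone (adjusted p 0.0515). Both calls held without replicate 3 of the Jag1/FICZ group and were lost without any 1 of the other 4 libraries.

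Of 20 macrophage genes, 3 were lower, none was higher and 17 did not pass (median −0.18). Fcgr1, the high-affinity IgG receptor CD64, fell from 138 and 140.2 to 6.17, 3.95 and 18.1 (log2 fold change −4.00, SE 0.639, adjusted p 0.00827, limma). It was low with Jag1 alone too, at 8.61, 15.8 and 24.1, and higher with FICZ alone, at 64.2 and 122 (adjusted p 0.0294 for both together against FICZ). Axl, a receptor for apoptotic cells, fell from 22691 and 20413 to 3999.5, 2724 and 4309, and Lgals3, a galactoside-binding lectin, from 42995 and 40289 to 14277, 10753 and 21826. Adgre1 (F4/80), Mertk and C1qa did not pass (log2 fold changes −0.77, −0.13 and 0.74).

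Scavenger receptors and lectins of macrophages were among the lists with the largest share of calls. Of 17 tested, 6 were lower, 1 was higher and 10 did not pass, 41.2% called against 4.48% of all genes, with a median of −0.35. Mrc1, the mannose receptor CD206, was at 70.1 and 139 with neither and at 0, 0.952 and 2.49 with both, and Marco, a scavenger receptor for bacteria, at 66.7 and 163 and 0, 5.23 and 0. All 3 libraries with both additions were at or under 3 reads for Mrc1 and 2 of 3 were at 0 for Marco, so the fitted folds depend on the added 1. Stab1, a clearance receptor, fell from 456 and 513 to 114, 166 and 68.0 (log2 fold change −2.14, SE 0.44, adjusted p 0.0244, limma). Msr1, the class A scavenger receptor, fell from 632 and 668 to 207, 201 and 149.9, and the β-glucan receptor Clec7a from 706 and 744 to 203, 159 and 279. Clec4n, or dectin-2, was lower with both (log2 fold change −1.44, SE 0.313, adjusted p 0.0317). Stab1 and Msr1 had FICZ values of 919 and 676 and 934 and 595, above both additions together (adjusted p 0.0137 and 0.00772), whereas Clec7a had Jag1 values of 903, 562 and 454 (adjusted p 0.00483). Scarb1, the receptor for high-density lipoprotein, rose from 756 and 722 to 1579, 1517 and 1349 (log2 fold change 1.00, SE 0.204, adjusted p 0.0239). No call of this list was left without replicate 1 or replicate 2 of TGFβ/IL-34.

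Genes of neutrophil granules and their progenitors gave the highest median of the lists with 10 or more tested genes outside stroma. Of 19 tested, 8 were higher, none was lower and 11 did not pass (42.1% called), with a median log2 fold change of 2.54. The list's genes summed to 966 and 2697 with neither and to 11787 to 16588 with both, without overlap. The 10 neutrophil markers summed to 384 to 1599 and to 8403 to 12973, and how far such cells account for the result was not tested. Ngp (ENSMUSG00000032484, chromosome 9, 110248815 to 110252086), a granule protein of myelocytes, stood at 44.4 and 205 with neither and 2607, 3972 and 2405 with both (log2 fold change 4.92, SE 0.583, adjusted p 0.00259, limma). It was at 37.4, 76.0 and 65.3 with Jag1 and 253 and 488 with FICZ, lower in each than with both (adjusted p 8.97e-05 and 0.0294), and it passed without each library in turn. Elane, neutrophil elastase, rose from 120.2 and 176 to 3050.1, 3694 and 2094, and Prtn3, proteinase 3, from 87.8 and 174 to 1726, 2106 and 1527. Ctsg, cathepsin G, rose from 10.3 and 17.2 to 665, 591 and 141. These serine proteases of the primary granules were at 1978 and 964, 1522 and 661 and 197 and 113 with FICZ alone, and none passed between FICZ alone and both (adjusted p 0.417, 0.477 and 0.248). With Jag1 alone Elane was at 9.07, 0 and 4.97. Cebpe, the transcription factor of granulocyte maturation, rose from 109.7 and 203 to 1079, 1386 and 1248 (log2 fold change 3.04, SE 0.376, adjusted p 0.00324), and the receptor Cxcr2 from 79.4 and 99.7 to 334, 267 and 330.1. S100a9, a subunit of calprotectin, was at 67.0 and 508 and 934, 1560.0 and 1418, and the cystatin Stfa1 rose 5.09-fold. Mpo, a defining enzyme of primary granules, was at 0 and 3.12 with neither and at 3.82, 4.29 and 3.75 with both, and Ly6g was listed at 0 in all 3 libraries with both. Camp and Ltf, of the secondary granules, did not pass (log2 fold changes 3.00 and 2.54, adjusted p 0.173 and 0.164). Ngp was the only one of the 8 to pass without replicate 1 of TGFβ/IL-34, and 3 to 5 of them passed without any 1 of the other 4 libraries.

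Of 12 mast cell and basophil genes, 4 were higher, none was lower and 8 did not pass (33.3% called, median 1.70). Hdc, which makes histamine, stood at 121 and 126 with neither and 976, 1072 and 885 with both (log2 fold change 2.97, SE 0.378, adjusted p 0.00375, limma). Mcpt8, a basophil protease, rose from 34.4 and 44.7 to 479, 253 and 228, also higher than with FICZ alone at 72.7 and 87.3 (adjusted p 0.0299). Cpa3, a mast cell carboxypeptidase, rose from 607 and 781 to 4053, 2653 and 1984, and it stood at 3941 and 3889 with FICZ alone (adjusted p 0.328 against both). Mcpt1 rose from 155 and 498 to 3659, 2542 and 1209. Kit, the receptor of mast cells and progenitors, did not pass (1024 and 1313 and 1725, 2272 and 2112), and Fcer1a, the chain of the IgE receptor that defines both cell types, was listed at 0 in all 5 libraries. The 6 mast cell markers summed to 1761 to 2368 with neither and to 4562 to 6912 with both. None of the 4 passed without replicate 1 of TGFβ/IL-34, and 3 did without any 1 of the other 4 libraries.

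Of 16 classical monocyte genes, 2 were higher and 14 did not pass, none being lower (median 0.51). Plac8 rose from 303 and 586 to 3091, 3417 and 2832 (log2 fold change 2.88, SE 0.369, adjusted p 0.0039, limma). It was at 3153 and 2796 with FICZ alone (adjusted p 0.928 against both) and at 46.3, 108 and 97.2 with Jag1 alone. Fn1, fibronectin, rose from 576 and 814 to 1446, 2258 and 2294. Fibronectin is also made by stromal cells, and its value was lowest in replicate 1. Ly6c2, the surface antigen that defines these monocytes, and Ccr2, their chemokine receptor, did not pass, with log2 fold changes of 1.34 and −1.69.

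Of 40 myeloid transcription factors, 2 were higher, 3 were lower and 35 did not pass (median −0.20). Besides Cebpe, the progenitor factor Myb rose from 118 and 216 to 1182, 1160.1 and 972 (log2 fold change 2.78, SE 0.522, adjusted p 0.0174, limma), while it stood at 244 and 789.5 with FICZ alone and at 16.6, 27.0 and 10.1 with Jag1 alone. Mitf and Tfec, related factors of macrophages and lysosomal genes, fell from 247 and 281 to 101, 111 and 114 and from 157 and 186 to 44.7, 48.2 and 45.5. Tfec was lower than with either addition alone (adjusted p 0.000305 and 0.0262). Spi1 (PU.1) and Irf8, which set the myeloid and dendritic fates, did not pass (log2 fold changes −0.36 and 0.74).

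Interferon-stimulated genes had the lowest median of the lists with 10 or more tested genes. Of 49 tested, 13 were lower, none was higher and 36 did not pass, 26.5% called lower against 1.37% of all genes, with a median log2 fold change of −1.28. The 13 were Ifi44, Ifi213, Oas1g, Ifi207, Ifi27l2a, Mx2, Irf7, Oas3, Oas1a, Trim30d, Xaf1, Isg15 and Sp100. Such genes are switched on by interferon receptors through factors that bind an element whose core is GAAA, any 2 bases and GAAA again. That core is shown for 4 of the genes that passed, in 30-base windows of the RefSeq promoters (GRCm38.p6) on the strand that carries it, with the core in capitals.
Isg15, chr4:156200871-156200900, minus strand: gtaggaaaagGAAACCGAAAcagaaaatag
Oas1a, chr5:120907520-120907549, minus strand: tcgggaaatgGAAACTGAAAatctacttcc
Oas3, chr5:120777715-120777744, minus strand: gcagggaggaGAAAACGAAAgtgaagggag
Ifi213, chr1:173599326-173599355, minus strand: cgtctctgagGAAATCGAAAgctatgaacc
These cores lay 72, 14, 75 and 73 bases before the starts, and Isg15 held 3 overlapping copies and Oas1a 2. With both strands searched, the core was found in 3.44% of all 32851 promoters. It was found in 7 of 11 genes of the list that passed and had a promoter in the table (63.6%) and in 16 of 26 that did not pass (61.5%). Over all genes it was found in 12 of 139 that passed and were lower (8.63%), 11 of 302 that were higher (3.64%) and 410 of 10394 tested (3.94%).

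Oas1g, an oligoadenylate synthetase, stood at 177 and 201 with neither and 3.61, 7.16 and 15.7 with both (log2 fold change −4.47, SE 0.646, adjusted p 0.00549, limma). Its values with Jag1 alone were 44.1, 142 and 161 and with FICZ alone 80.7 and 67.8, and both additions together were lower than each (adjusted p 0.00201 and 0.0405). Mx2, an antiviral GTPase, fell from 143 and 253 to 14.4, 16.6 and 23.9 (log2 fold change −3.34, SE 0.46, adjusted p 0.00493), also lower than with Jag1 at 36.1, 50.8 and 90.3 or FICZ at 138 and 118 (adjusted p 0.0248 and 0.0174). Irf7, the transcription factor that amplifies the interferon response, fell from 342 and 413 to 44.2, 28.1 and 58.8. It was lower with both than with Jag1 alone at 117, 237 and 469.8 (adjusted p 0.00466), and the difference from FICZ alone at 174 and 146 missed the threshold (adjusted p 0.0937). Ifi44 fell from 178 and 213 to 6.62, 3.27 and 7.30 and Ifi207, of the DNA-sensing family, from 957 and 1007 to 35.9, 36.3 and 112. Isg15, a ubiquitin-like modifier, fell from 151 and 221 to 65.7, 68.9 and 64.0. Sp100, a nuclear body protein, changed least among the 13 (log2 fold change −0.99, SE 0.194, adjusted p 0.0211). Of the 49 genes, 46 had negative and 3 positive log2 fold changes. The groups did not overlap in 42 of them, against 7101 of all 13095 genes tested (54.2%). Oasl2 and Rsad2 did not pass, with log2 fold changes of 0.11 and −0.52. Mx2 was the only one of the 13 that passed without replicate 1 of TGFβ/IL-34, none did without its replicate 2, and 3, 3 and 8 did without replicates 1, 2 and 3 of the Jag1/FICZ group.

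**Figure D3:**
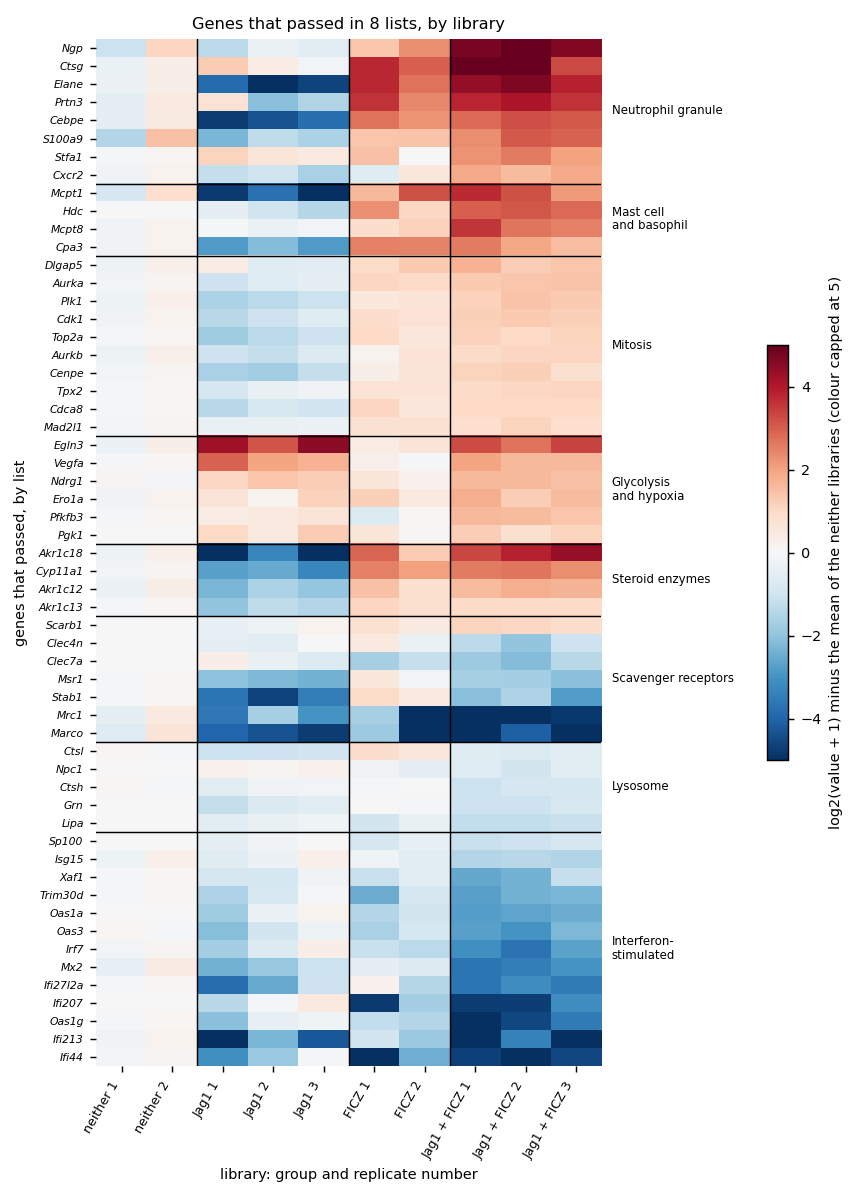
Rows are the genes that passed in 8 lists and columns are the 10 libraries given TGFβ and IL-34, by group and replicate number, with colour showing log2(value + 1) minus the mean of the neither libraries (red higher, blue lower, capped at 5). Granule, mast cell and steroid genes are mostly red in both groups with FICZ and mostly blue with Jag1 alone, glycolysis and hypoxia genes are mostly red in both groups with Jag1, and interferon-stimulated genes are blue in all 3 libraries with both.

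Some genes of cell division were higher with both additions. Of 50 mitosis genes, 10 were higher, none was lower and 40 did not pass (20.0% called against 4.48% of all genes, median 0.97). The called genes were Dlgap5, Aurka, Plk1, Cdk1, Top2a, Aurkb, Cenpe, Tpx2, Cdca8 and Mad2l1. Aurka, a spindle kinase, was at 204 and 245 with neither and 559, 593 and 599 with both (log2 fold change 1.38, SE 0.232, adjusted p 0.0103, limma). Cdk1, the kinase that drives entry into mitosis, rose from 319.6 and 407 to 826, 890.0 and 824, and Top2a, which untangles chromosomes, from 1713 and 1993 to 4079, 3684 and 4001. With Jag1 alone the 3 genes were at 137, 182 and 724 on average, below both together (adjusted p 0.000135, 0.000142 and 4.90e-05). With FICZ alone they were at 456, 631 and 3159, and none passed against both (adjusted p 0.347, 0.31 and 0.374). Mki67, the usual proliferation marker, did not pass against neither (1283 and 1521 and 2979, 2802 and 3049, adjusted p 0.131). Of 50 DNA replication genes, 3 were higher and 47 did not pass, none being lower (6% called, median 0.48). Cdc45, of the replicative helicase, rose from 116 and 127 to 311, 328 and 315. Tyms, which makes thymidylate, and Uhrf1, which maintains DNA methylation, rose by less than 2-fold (log2 fold changes 0.87 and 0.75). None of these 13 calls was left without replicate 1 or replicate 2 of TGFβ/IL-34, and at most 1 without a library of the other group. With the experiment code, which the groups share in part, as a term in the fit, all 3 replication calls were lost, and 3 or 4 of the 10 mitosis calls, depending on which of the authors' records of the code was used (Cdca8, Cenpe and Dlgap5 with both, Aurkb with 1).

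A few genes of glycolysis and of the response to hypoxia were higher as well. Of 36 tested, 6 were higher, none was lower and 30 did not pass (16.7% called, median 0.63). Egln3, the oxygen-sensing prolyl hydroxylase that hypoxia itself induces, stood at 189 and 292 with neither and 2265, 1533 and 2472 with both (log2 fold change 3.12, SE 0.385, adjusted p 0.00324, limma). It was at 4486, 2063 and 5296 with Jag1 alone and at 300.4 and 371 with FICZ alone, and both together were higher than FICZ (adjusted p 0.0118) and not different from Jag1 at the threshold (adjusted p 0.13). Vegfa, the vascular growth factor, had the same order, with 2912 and 3344 with neither, 15520.1 ± 7387 with Jag1 (SD, n = 3), 3702 and 2991 with FICZ and 12326, 9512 and 9546 with both. Ndrg1, a stress-induced gene, rose from 3084 and 2531 to 8566, 8523 and 7763 (log2 fold change 1.57, SE 0.182, adjusted p 0.00252) and passed without each library in turn. Pfkfb3, which speeds glycolysis, rose from 3560.4 and 4175 to 11916, 11398 and 9998 and was higher than with either addition alone (adjusted p 0.00516 and 0.00607). Ero1a, an oxidase of the endoplasmic reticulum, and Pgk1, a glycolytic enzyme, rose 2.92-fold and 2.07-fold. These 2 calls were lost without any 1 of the 5 libraries, and Ndrg1 was the only one of the 6 left without replicate 1 of TGFβ/IL-34. Slc2a1, the glucose transporter, and Ldha, lactate dehydrogenase, did not pass (log2 fold changes −0.11 and 0.57). None of 63 oxidative phosphorylation genes and none of 79 cytosolic ribosomal protein genes passed in either direction (limma), with medians of −0.05 and 0.15.

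Among 18 steroid enzymes, 4 were higher, none was lower and 14 did not pass (22.2% called, median 0.12). Cyp11a1 (ENSMUSG00000032323, chromosome 9, 57913694 to 57935933), which cleaves the cholesterol side chain in the first step of steroid synthesis, stood at 757 and 927 with neither and 5082, 5428 and 4237 with both (log2 fold change 2.54, SE 0.249, adjusted p 0.00113, limma). Its values with FICZ alone were 4747 and 3431 and with Jag1 alone 125, 145 and 86.3, and it passed without each library in turn. The aldo-keto reductases Akr1c18, Akr1c12 and Akr1c13, which convert progesterone and related steroids, were the others. Akr1c18 rose from 40.4 and 56.4 to 494, 699 and 999, and it was at 0, 4.09 and 0 with Jag1 alone. The Akr1c genes are near copies of each other and may share reads, and the calls of all 3 were lost without any 1 of the 5 libraries. Of 27 prostanoid and leukotriene enzymes, 3 were higher and 24 did not pass, none being lower. Ptgs2 (COX-2) rose from 19.2 and 34.1 to 207, 130.4 and 209 and Pla2g7, which breaks down platelet-activating factor, from 1755 and 1878 to 6285, 7069 and 5113. Lta4h, which makes leukotriene B4, rose 1.85-fold. Ptgs2 and Pla2g7 lost the threshold only without replicate 1 of TGFβ/IL-34, and Lta4h without any 1 library. Ptgis, prostacyclin synthase, was at 28.8 and 6.77 and 96.3, 41.5 and 309 and missed the threshold (adjusted p 0.0826), while it was at 5054, 6007 and 8307 with Jag1 alone (adjusted p 0.000471 against both together).

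In lipid handling, 2 of 30 fatty acid genes were higher, 2 were lower and 26 did not pass (13.3% called against 4.48% of all genes). The fatty acid binding proteins rose, Fabp5 from 5981 and 5153 to 13687, 18029 and 14116 (log2 fold change 1.45, SE 0.317, adjusted p 0.0324, limma) and Fabp4 from 6.51 and 6.67 to 31.6, 83.7 and 121. The lipases fell, Lpl from 5161 and 3836 to 1636, 1359.9 and 1566 (log2 fold change −1.55, SE 0.264, adjusted p 0.0113) and the lysosomal Lipa from 1733 and 1817 to 763, 766 and 816 (log2 fold change −1.18, SE 0.191, adjusted p 0.00856). Of 34 sterol genes, Pmvk, of the mevalonate pathway, was higher (log2 fold change 1.68, SE 0.375, adjusted p 0.0353), Npc1, which exports cholesterol from lysosomes, was lower (log2 fold change −0.71, SE 0.165, adjusted p 0.0393) and 32 did not pass. The share called among sterol genes was thus 5.88%, near the 4.48% of all genes. Of 43 lysosome genes, 5 were lower, none was higher and 38 did not pass (11.6% called, median −0.35). They were Lipa, Npc1, the progranulin gene Grn and the proteases Ctsh and Ctsl. Grn fell from 18506 and 18438 to 8924, 8992 and 10627 and Ctsh from 8089 and 7587 to 3719, 4381 and 4241, each without overlap. Of 34 glutathione and oxidative stress genes, 2 were higher and 2 lower (11.8% called). The cystine transporter Slc7a11 rose from 1386 and 1862 to 3521, 3526 and 3454 and glutathione reductase, Gsr, 1.76-fold. Gclm, a subunit of the enzyme that starts glutathione synthesis, fell from 2406 and 2564 to 880.3, 1025 and 890.3 (log2 fold change −1.42, SE 0.206, adjusted p 0.00569), and the peroxiredoxin Prdx1 from 7521 and 8179.7 to 3711, 3492 and 3974 (log2 fold change −1.08, SE 0.169, adjusted p 0.00774). None of these lipid, lysosome or glutathione calls was left without replicate 1 or replicate 2 of TGFβ/IL-34.

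Secreted signals changed in both directions. Of 18 chemokines, 4 were higher, 1 was lower and 13 did not pass. Besides Ccl24, Ccl9, which attracts myeloid cells, rose from 654 and 1416 to 3625, 4522 and 4399 (log2 fold change 2.11, SE 0.431, adjusted p 0.0239, limma). The neutrophil chemokines Cxcl1 and Cxcl3 rose from 22.9 and 79.5 to 165, 179 and 209 and from 76.6 and 153 to 264, 316 and 419.6. Ccl17, a dendritic cell chemokine for T cells, fell from 28755 and 29265 to 10265, 10248 and 8377 (log2 fold change −1.60, SE 0.224, adjusted p 0.00531). It was lower still with Jag1 alone, at 1882, 2643 and 1853 (adjusted p 8.41e-05), and highest with FICZ alone, at 53747 and 36193 (adjusted p 0.0024). Of 19 chemokine receptors, 4 were higher, namely Ccrl2, Cxcr4, Cxcr2 and the leukotriene B4 receptor Ltb4r1. Cxcr4, which holds progenitors in the marrow, rose from 574 and 807 to 2480.5, 2630.4 and 2471 (log2 fold change 1.89, SE 0.276, adjusted p 0.00569).

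Of 27 cytokines and growth factors, 5 were higher, 1 was lower and 21 did not pass. Il1a (interleukin-1α; ENSMUSG00000027399, chromosome 2, 129140291 to 129152098) stood at 742 and 673 with neither and 82.9, 88.9 and 129.9 with both (log2 fold change −2.83, SE 0.25, adjusted p 0.00108, limma). Both additions together were lower than Jag1 alone at 350.1, 302 and 389 (adjusted p 0.000475) and FICZ alone at 648 and 605 (adjusted p 0.00175), and the call held without each library in turn. Il1b, its relative, was at 2155 and 3577 and 5270.2, 4958 and 9592 and did not pass (adjusted p 0.191). Hgf, the hepatocyte growth factor, rose from 22.5 and 68.6 to 211, 251 and 321, and Hbegf, an epidermal growth factor receptor ligand, from 99.6 and 73.5 to 234, 253 and 233. Hbegf was higher than with either addition alone (adjusted p 9.88e-05 and 0.0168). Osm, of the IL-6 family, rose from 566 and 733 to 2369.8, 2082 and 2456, against 2828 ± 558 (SD, n = 3) with Jag1 alone, and Il23a from 3.80 and 9.57 to 40.6, 35.7 and 47.7. Vegfa was the remaining one. Without replicate 1 of TGFβ/IL-34, Ccl24 and Il1a were the chemokine and cytokine calls that still passed.

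Of 17 MHC class II genes, 1 was lower, none was higher and 16 did not pass, 5.88% called against 4.48% of all genes. The log2 fold change was negative in 15 of the 17, with a median of −0.75 against 0.0053 over all genes. H2-Ab1, a chain of the antigen-presenting molecule, fell from 220556 and 181376 to 73968, 73804 and 108347 (log2 fold change −1.25, SE 0.289, adjusted p 0.0395, limma), a call lost without any 1 of the 5 libraries. Cd74, the invariant chain, was at 519286 and 433001 and 246542, 232827 and 287601 and did not pass (adjusted p 0.214). Of 30 dendritic cell maturation genes, 2 were higher, 3 were lower and 25 did not pass (16.7% called). Tnfrsf9 (4-1BB), a costimulatory receptor, rose from 10457 and 12009.7 to 49870.1, 45262 and 40826, higher than with Jag1 or FICZ alone (adjusted p 0.0249 and 0.0407), and Stat4 rose 3.05-fold. Dcstamp, a fusion protein of dendritic cells and osteoclasts, fell from 868 and 1182 to 162, 135 and 432, and Icosl, a costimulatory ligand, from 1552 and 1396 to 479, 586 and 463. Of 21 leukocyte integrins, Itgb3, Itga4, Itga2b and Itga6 were higher, Itgb2 was lower and 16 did not pass (23.8% called). Itga4, which pairs in VLA-4, rose from 3872 and 3956 to 12785, 11240.5 and 8845 and Itgb3 from 21.4 and 26.6 to 162, 168 and 163, each higher than with Jag1 (adjusted p 0.0285 and 0.00593) or FICZ alone (adjusted p 0.00959 and 0.0168). Itgb2 (CD18) fell 1.61-fold.

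The remaining lists differed in their share of calls, which was 4.48% over all genes. It was 44.4% for lymphocyte, 40% for adipocyte, 22.2% for Fc receptor and 20% for epithelial and for purinergic genes. It was 8.70% for matrix proteases and inhibitors and 4.76% for Toll-like receptors and partners. Of 20 purinergic genes, Enpp2 (autotaxin), P2rx1 and Nt5e (CD73) were higher, P2ry6 was lower and 16 did not pass. Enpp2 rose from 82.7 and 86.8 to 309, 347 and 221 and P2ry6, a receptor for UDP, fell from 639 and 661 to 113, 54.0 and 194. Of 23 matrix proteases and inhibitors, Serpinb2, an inhibitor of plasminogen activators, rose from 10.1 and 14.2 to 226, 373 and 379 and the macrophage elastase Mmp12 fell from 37644 and 38809 to 9150.0, 9215 and 13574, while 21 did not pass. Of 9 Fc receptors, Fcgr1 and the neonatal receptor Fcgrt were lower and 7 did not pass. Of 21 Toll-like receptors and partners, Unc93b1, which carries them to endosomes, was 1.52-fold lower and 20 did not pass. None of 15 CD300 and TREM receptors passed in either direction (limma). Of 9 lymphocyte genes, Gzma, Cd3g, Cd79b and Nkg7 were higher and 5 did not pass. Their levels were low, with Cd3g at 82.0, 13.9 and 64.3 and Cd79b at 47.1, 51.1 and 29.8 with both. Ms4a1 (CD20), a defining marker of B cells, was at 18.2 and 0 with neither and 8.38, 9.41 and 5.48 with both and did not pass (adjusted p 0.744). Of 5 epithelial genes Dsp, desmoplakin, was higher (log2 fold change 2.29, SE 0.412, adjusted p 0.0149). Of 5 adipocyte genes Fabp4 was higher and Lpl lower, and neither of 2 erythroid genes passed. With the experiment code as a term by either record, the calls of Eng, Pmepa1, Ski, Mrc1, Marco, Cxcr2, Mcpt1, Isg15, Akr1c13, Fabp5, Slc7a11, Ctsl, Ccl9, Ltb4r1, Il23a, H2-Ab1, Itgb2, Unc93b1, Loxl1, Cd79b and Nkg7 were lost as well. No call of the macrophage, monocyte, transcription factor, dendritic cell, integrin, chemokine receptor, purinergic, protease, Fc receptor or lymphocyte lists was left without replicate 1 of TGFβ/IL-34.

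**Figure D4:**
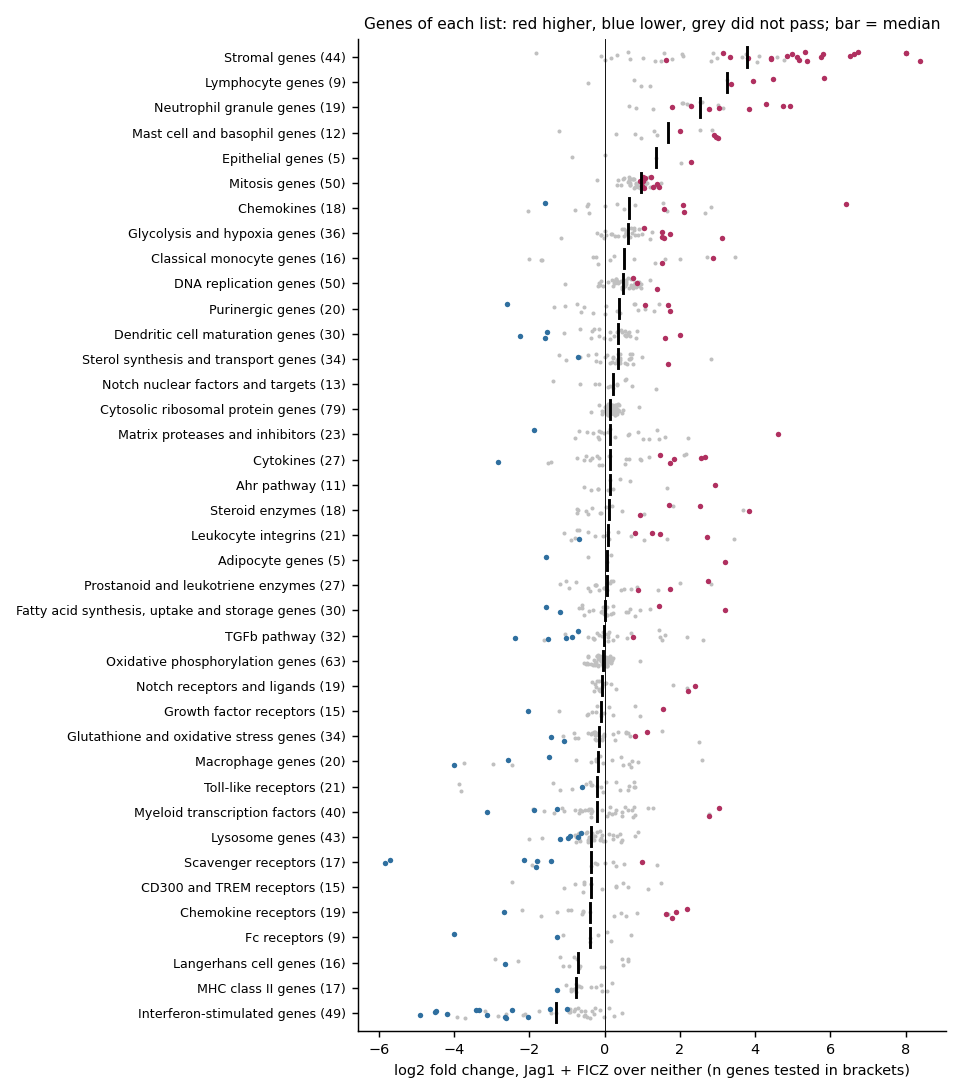
Each point is a tested gene, placed by its log2 fold change with Jag1 and FICZ together over neither on the x axis, with lists as rows (genes tested in brackets, the 2 erythroid genes not drawn) ordered by their median, which is the black bar. Red genes passed and were higher, blue genes passed and were lower and grey genes did not pass. The highest medians are those of stromal, lymphocyte and granule genes and the lowest that of the interferon-stimulated genes.

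Stromal genes were kept apart because OP9 cells may be carried over into a sort. Of 44 tested, 20 were higher, none was lower and 24 did not pass, with a median log2 fold change of 3.79. Col1a2 (ENSMUSG00000029661, chromosome 6, 4504814 to 4541555), a chain of type I collagen, was listed at 0 in both controls and at 133, 331 and 823 with both additions, at least 149.9-fold higher with the controls set to 3 reads each (adjusted p 0.00108, limma). It was also at 0 in both libraries with FICZ alone and at 131, 229 and 69.1 with Jag1 alone. Col1a1, the partner chain, had 222, 625 and 1345 with both and 191, 369 and 84.1 with Jag1, and Bgn, biglycan, 109, 317 and 1393 and 117, 176 and 114. In 18 of the 20 genes that passed (90.0%), replicate 1 of the Jag1/FICZ group was lowest and replicate 3 highest. That order was found in 2266 of all 13095 genes (17.3%) and in 49 of the 388 genes that passed and were higher outside the list (12.6%). Thy1 and Nid1 were the 2 exceptions.

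Thy1, a surface glycoprotein that leukocytes can also carry, stood at 789.5 and 1185 with neither and 16084, 13020.3 and 12187 with both (log2 fold change 3.82, SE 0.431, adjusted p 0.00232). It was at 12178 and 3578 with FICZ alone and at 177, 284 and 228 with Jag1 alone, where the collagens were present. Igfbp7, a binding protein of insulin-like growth factors, was at 470.3, 489.6 and 504 with both and 308 and 161 with FICZ alone, against 23.6 and 20.1 with neither and 31.8, 76.0 and 19.8 with Jag1 alone. Nid1, a basement membrane protein, rose from 68.0 and 81.1 to 677, 924 and 678 and was at 45.3 and 188 with FICZ alone and 36.9, 54.2 and 24.0 with Jag1 alone. Outside the list, 14 genes that passed and were higher were at or under 3 reads in all 4 libraries without Jag1. They included Aebp1, Col16a1, Ddr2 and Arnt2, of which Ddr2, a collagen receptor, is named here after its values were seen. With the stromal list and all tested genes at or under 3 reads in those 4 libraries left out, 553 genes remained called, 374 higher and 179 lower, a count chosen after the data were seen. Replicate 3 of the Jag1/FICZ group also lay apart among the genes that were lower. It was the highest of its 3 libraries in 127 of those 179 genes (70.9%), nearest the controls, against 4534 of all 13095 genes (34.6%).

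**Figure D5:**
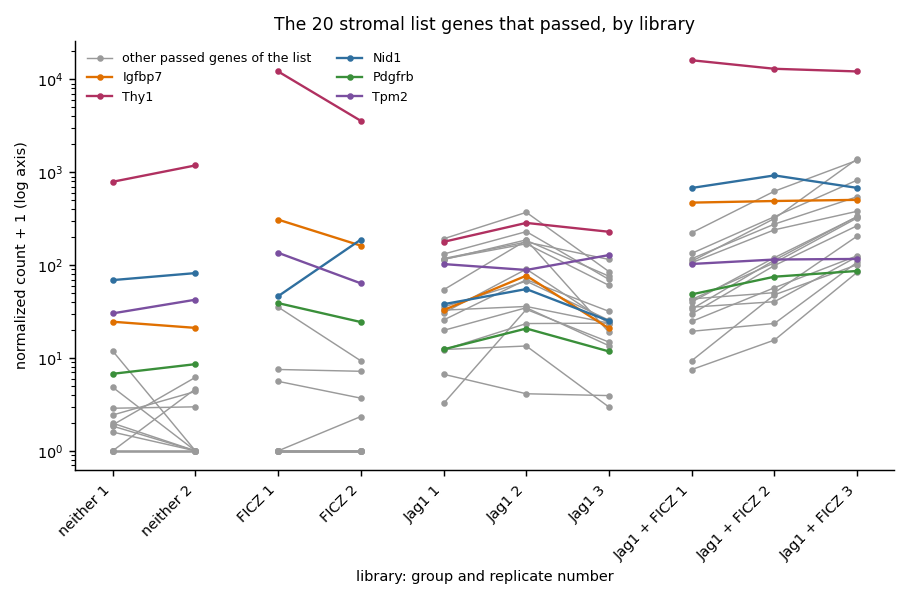
Normalized counts plus 1 (log axis) of the 20 stromal list genes that passed are plotted for the 10 libraries given TGFβ and IL-34, a line joining the values of 1 gene within a group only to let the eye follow it. The 15 genes in grey are low without Jag1 and highest in replicate 3 with both additions. The 5 coloured ones, Thy1, Igfbp7, Nid1, Pdgfrb and Tpm2, are above 0 in all libraries without Jag1, and both FICZ values of Thy1, Igfbp7 and Pdgfrb lie above all 3 with Jag1 alone.

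The level of the combination relative to each single addition was also tested over all genes. Between both additions and Jag1 alone 17.7% of the genes tested passed, and between both additions and FICZ alone 2.02% (limma, adjusted p under 0.05). These comparisons share the 3 libraries with both additions, and the groups with FICZ alone and Jag1 alone held 2 and 3 libraries, so the shares are set side by side only.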

How the data were processed

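RNA from sorted cells was sequenced in bulk for 11 samples, and 5 of them were compared. The authors ran salmon on a GRCm39 transcriptome from Ensembl, collapsed its estimates to genes by tximport and normalized them in DESeq2 (versions not given in the sources used here). Each deposited value is thus a normalized signal, an estimated count after the authors' scaling. Only 52.6% to 58.1% of low values over all genes were whole multiples of 1 read within 0.1 reads, by library, so no count model was run. Of 21860 genes, 21676 matched GENCODE mouse release 39, which gave the GRCm39 coordinates.

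Since the values are not counts, limma 3.58.1 (R 4.3.3) was run on log2(value + 1). The model had a mean for each of 5 groups, used all 11 samples without covariates and left 6 residual degrees of freedom, and eBayes was run with a trend. The two-sided p-values were adjusted over all 13095 genes (Benjamini-Hochberg), with a threshold of 0.05. The script was tested on simulated data. Named genes were up to 12 per direction with the largest fold among genes that passed, whose higher group averaged 50 or more and whose groups did not overlap, outside the stromal list, and any gene of 40 lists. The members and lists were chosen with earlier results of these data known. Of 54 interferon-stimulated genes listed, for example, 49 passed the filter on low values and 5 did not. Alternatives were other scalings, pseudocounts, filters, samples, weights, blocks and leaving out each library. An experiment code of the authors' second file differed from the sample description in 1 sample, replicate 1 of TGFβ/IL-34. The values of a few genes are not reported here.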

Additional observations from a re-analysis of the deposited data

How the results depend on the processing

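The number of genes that passed (587, with 408 higher and 179 lower) stayed within 1.5 times under both other pseudocounts, both other filters, the 2-fold minimum, the fit without the Jag1 only sample and all 4 blocks, with 489 to 654 calls. Quantile normalization gave 712, of which 277 were lower. It rose to 3011 (1803 higher, 1208 lower) with only the 5 samples, to 3558 (2004 and 1554) with array weights and, as tried only after seeing the data, to 1699 (1049 and 650) without the 2 TGFβ/IL-34/FICZ libraries. The cause was not tested. Leaving out each of the 5 libraries in turn gave 35 to 308 calls, 27 to 186 higher and 8 to 122 lower, the lowest without a control library. Leaving out the stromal list and genes at or under 3 reads without Jag1 gave 553. No gene named as passed changed direction under any of the 18 settings in which genes were refitted. Replicate numbers 1 and 2 occur in both groups, but they do not follow the experiment codes, and deviations of same-numbered samples had correlations of 0.00779 and 0.0362 across genes. With the replicate number as a block (replicate block) 652 genes passed, 399 higher and 253 lower, of which 473 were among the 587. Of 182 listed or named genes that passed, 32 lost the call under that block, among them all 3 of DNA replication and 5 of the 10 of mitosis, and 35 under each experiment code. With the experiment code as a block 514 passed by the description and 545 by the authors' file, and with the flow cell, likewise tried later, 489.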

Other observations

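Other genes outside the lists, chosen after their values were seen, also passed the test. Thbs1, a secreted regulator of adhesion and of TGFβ activation, stood at 1798 and 3268 with neither and 30121, 21488 and 21480.2 with both (log2 fold change 3.31, SE 0.304, adjusted p 0.00108, limma). Its values were 2022, 3070.3 and 1755 with Jag1 alone and 5469.7 and 6506 with FICZ alone, below all 3 libraries with both (adjusted p 4.00e-05 and 0.0129). Hopx, a homeodomain-only protein, rose from 190.4 and 378 to 5874, 3918 and 4246, and it was at 5003, 2118 and 1916 with Jag1 alone. Phgdh and Psat1, enzymes of serine synthesis, rose from 160.0 and 203 to 1400.2, 1412 and 850.4 and from 433 and 549 to 2270.3, 2336 and 2018. The mitochondrial serine hydroxymethyltransferase Shmt2 rose 2.48-fold (adjusted p 0.0184, limma) and asparagine synthetase, Asns, 3.32-fold (adjusted p 0.0478). The Asns call was lost without any 1 of the 5 libraries. It was also lost with no filter on low values, with a pseudocount of 0.5 and with the flow cell as a block. The Shmt2 call was lost without replicate 1 or replicate 2 of either group. Hopx and Phgdh lost theirs without replicate 1 of TGFβ/IL-34, whereas Thbs1 and Psat1 passed without each library in turn. Psat1 stood at 109.9, 152 and 129.7 with Jag1 alone and at 1468 and 1122 with FICZ alone.

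Padi4, which citrullinates histones in neutrophils, rose from 18.2 and 43.2 to 369.9, 365 and 315 and was higher than with either addition alone (adjusted p 0.000215 and 0.0433, limma). Gfi1b, a transcription factor of erythroid and megakaryocyte cells, rose from 35.2 and 50.7 to 222, 222 and 220.3. On the lower side, Acod1, which makes itaconate in activated macrophages, fell from 893 and 1270.0 to 115, 150.5 and 115 (log2 fold change −3.07, SE 0.434, adjusted p 0.00531), and Cybb, a subunit of the phagocyte oxidase, from 1779.9 and 1874 to 483, 549.6 and 613 (log2 fold change −1.74, SE 0.308, adjusted p 0.0136). The Cybb call was lost without replicate 1 or replicate 2 of either group. Acod1 lost its call without either library of TGFβ/IL-34, and Padi4 and Gfi1b lost theirs without replicate 1 of TGFβ/IL-34. For all of these genes the 2 groups did not overlap, as was the case in 54.2% of all genes tested.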
